A study of Mus musculus with 8 samples.

Results

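Tissue mineralisation depends on enzymes, carriers and matrix proteins, and 10 of their genes were followed in the descendants of hypertrophic chondrocytes, which are the large, mature cells of growth plate cartilage nearest the bone. The genes were Alpl, Phospho1, Smpd3, Sgms2, Enpp1, Ank, Slc20a1, Slc20a2, Ifitm5 and Sparc. They were taken by symbol, and each matched 1 of the 48490 genes in the deposited table. All 10 were among the 12888 genes tested, for which 2 or more of the 8 libraries had to reach an FPKM of 1. FPKM is a fragment count per unit of transcript length, relative to all fragments mapped in the library. Phospho1 passed that filter through the GoF and WT libraries alone, apart from a value of 1.00 in LoF library 4.

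The study asked how β-catenin, which carries canonical Wnt signals to the nucleus, acts on the choice of these cells between bone and fat. All mice carried Col10a1Cre, a recombinase driven by a gene of hypertrophic chondrocytes, and the Rosa26-Tdtomato reporter, and were at postnatal day 5. GoF (gain of function) mice had in addition the Ctnnb1-exon3 Δ/+ allele, which lacks the part that marks β-catenin for degradation, with 2 libraries. LoF (loss of function) mice were Ctnnb1Δ/Δ, with 4 libraries, and WT controls carried the Cre and reporter alone, with 2 libraries. Each library pooled 70 red fluorescent cells picked by hand from the proximal tibia. Cells in which the Cre had acted are marked whatever they became later, so a library can mix several fates. The labels do not say whether libraries of a group came from separate mice, so p-values rest on the spread among the libraries at hand, and that spread may be technical.

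Bone mineral forms when phosphate is freed near collagen faster than pyrophosphate, an inhibitor of crystal growth, builds up. Vesicles that bud from chondrocytes and osteoblasts hold phosphatases and phosphate carriers and are thought to seed the first crystals. Alkaline phosphatase, encoded by Alpl, removes pyrophosphate and releases phosphate, while Enpp1 makes pyrophosphate from ATP and the membrane protein of Ank passes it, or ATP, out of the cell. Phospho1 frees phosphate from phosphocholine inside the vesicle, and Smpd3 and Sgms2 break down and make sphingomyelin, one source of phosphocholine. Slc20a1 and Slc20a2 encode the sodium-dependent phosphate carriers PiT-1 and PiT-2. Ifitm5 encodes a membrane protein of osteoblasts, and Sparc encodes osteonectin, which binds collagen and calcium.

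Each library had a value above 0 for 12604 to 13962 genes. Depth in reads is not known, but the commonest ratio of low values between libraries gave depths of 0.902 to 1.16 relative to WT library 2. Ctnnb1 itself was at a mean FPKM of 79.3 in GoF, 74.96 in LoF and 142 in WT, with no mutant library above a WT library, and neither difference from WT passed the test (limma, adjusted p = 0.176 for GoF and 0.110 for LoF). The table holds 1 value per gene and does not show which exons were transcribed. Y-linked transcripts were found in GoF libraries 1 and 2 and in LoF libraries 2 and 3, while Xist was found in LoF libraries 1 and 4 and in WT libraries 1 and 2. Sex and genotype therefore cannot be told apart in GoF against WT. Only LoF held both patterns, so its libraries were not all from the same mouse, and any sex covariate rests on them. The 6 osteoblast markers (Col1a1, Col1a2, Bglap, Ibsp, Sp7 and Runx2) summed to an FPKM of 19750 to 19986 in GoF, 1066 to 2744 in LoF and 14617 to 15499 in WT. Runx2 did not follow the sums, at 33.6 and 19.9 in GoF, 19.4 to 33.6 in LoF and 38.2 and 63.7 in WT. Bglap was at 462 and 142 in GoF, 4.38 to 33.8 in LoF and 27.8 and 231 in WT, so LoF and WT overlapped. The 6 adipocyte markers summed to 0.809 to 4.44 in GoF, 498 to 767 in LoF and 17.99 to 115 in WT, with Cidec at 0 throughout. Most of the LoF sums came from Lpl and Fabp4, at 386 to 595 and 85.0 to 210. Pparg was at 10.6 to 22.4 in LoF and 4.72 and 1.47 in WT, and Plin1 at 0.949 to 3.36 and at 0.720 and 0. Adipoq was at 24.8, 62.1, 0.567 and 26.7 in LoF libraries 1 to 4 and 11.96 and 0 in WT. The 6 osteocyte markers summed to 345 to 789 in GoF, 3.37 to 17.3 in LoF and 48.6 to 137 in WT, with Sost and Fgf23 at 0 throughout. The GoF sums came from Dmp1, Pdpn and Phex, while Mepe was listed at 0 in all GoF and LoF libraries and at 1.23 and 0.811 in WT. The 6 marrow stromal markers summed to 39.7 to 61.2 in GoF, 591 to 1837 in LoF and 96.8 to 348 in WT. Of these, Cxcl12, Kitl, Ebf3, Pdgfrb and Vcam1 were lower in both GoF libraries than in every LoF library. Lepr went the other way, at 38.1 and 56.9 in GoF, 2.15 to 32.6 in LoF and 51.3 and 27.0 in WT. The 7 osteoclast markers summed to 96.6 to 98.8 in GoF, 58.9 to 73.0 in LoF and 63.8 to 72.4 in WT. Ocstamp, Dcstamp and Calcr were listed at 0 in every library. Acp5 was at 22.3 and 17.6 in GoF, 1.08 to 6.99 in LoF and 3.23 and 5.30 in WT. Ctsk was at 76.5 and 77.8 in GoF, 53.0 to 69.5 in LoF and 69.1 and 58.5 in WT. The hypertrophic chondrocyte markers differed in direction. Col10a1 was at 189.6 and 177 in GoF, 9.61 to 114 in LoF and 6.24 and 20.5 in WT, and Panx3 at 252 and 344 in GoF, 14.7 to 34.2 in LoF and 103 and 101 in WT. Mmp13 was at 10.9 and 86.7 in GoF, 3113 to 4784 in LoF and 2106 and 1514 in WT. Ihh was at 1.46 and 3.91 in GoF and listed at 0 in all LoF and WT libraries. The 6 cartilage markers summed to 69.4 to 133 in GoF, 20.5 to 77.5 in LoF and 18.03 to 20.6 in WT. Only Col2a1 was higher in both GoF libraries than in all others, at 90.3 and 48.8, against 7.39 to 38.3 in LoF and 9.48 and 5.64 in WT. Acan was at 8.74 and 4.79 in GoF, 1.16 to 17.8 in LoF and 1.49 and 2.15 in WT. Col9a1, Matn1, Hapln1 and Sox9 overlapped between GoF and LoF. The 5 pericyte and smooth muscle markers summed to 0.723 to 1.83 in GoF, 29.5 to 66.98 in LoF and 20.9 to 27.1 in WT, with Myh11 at 0 throughout. The 5 endothelial markers summed to 52.8 in LoF library 3, 0 to 6.83 in the other LoF libraries, 0.541 to 1.19 in GoF and 0.334 to 0.549 in WT. The 6 myeloid and lymphoid markers summed to 6.87 to 11.99 in GoF, 5.24 to 18.7 in LoF and 5.34 to 10.04 in WT. The highest sum was that of LoF library 2, with Ptprc at 4.66 and Cd79a at 4.62. The part of these markers in the results was not tested. In pooled cells, fewer cells of a type and less RNA per cell cannot be told apart.

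Set against LoF, GoF cells had higher levels of 6 of the 10 genes, namely Alpl, Phospho1, Smpd3, Sgms2, Ifitm5 and Sparc, and a lower level of Slc20a2. Enpp1, Ank and Slc20a1 did not pass. Of all tested genes 11.6% were called in this comparison, 5.97% higher and 5.68% lower (limma, adjusted p under 0.05). The median log2 fold change of the 10 genes was 2.43 and that of all tested genes -0.17. Libraries of the groups did not overlap for 9 of the 10 genes, 6 with GoF above and 3 with GoF below, against 33.5% of all tested genes (14.8% above and 18.7% below). Scaling by quantile normalization moved the median of all genes to -0.03. The calls of the 6 higher genes held there, as they did with sex as a covariate, a term that only the LoF libraries inform. The call of Slc20a2 ended under both, and without GoF library 1 or 2 only 3 of the 10 genes were called.

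**Figure D1:**
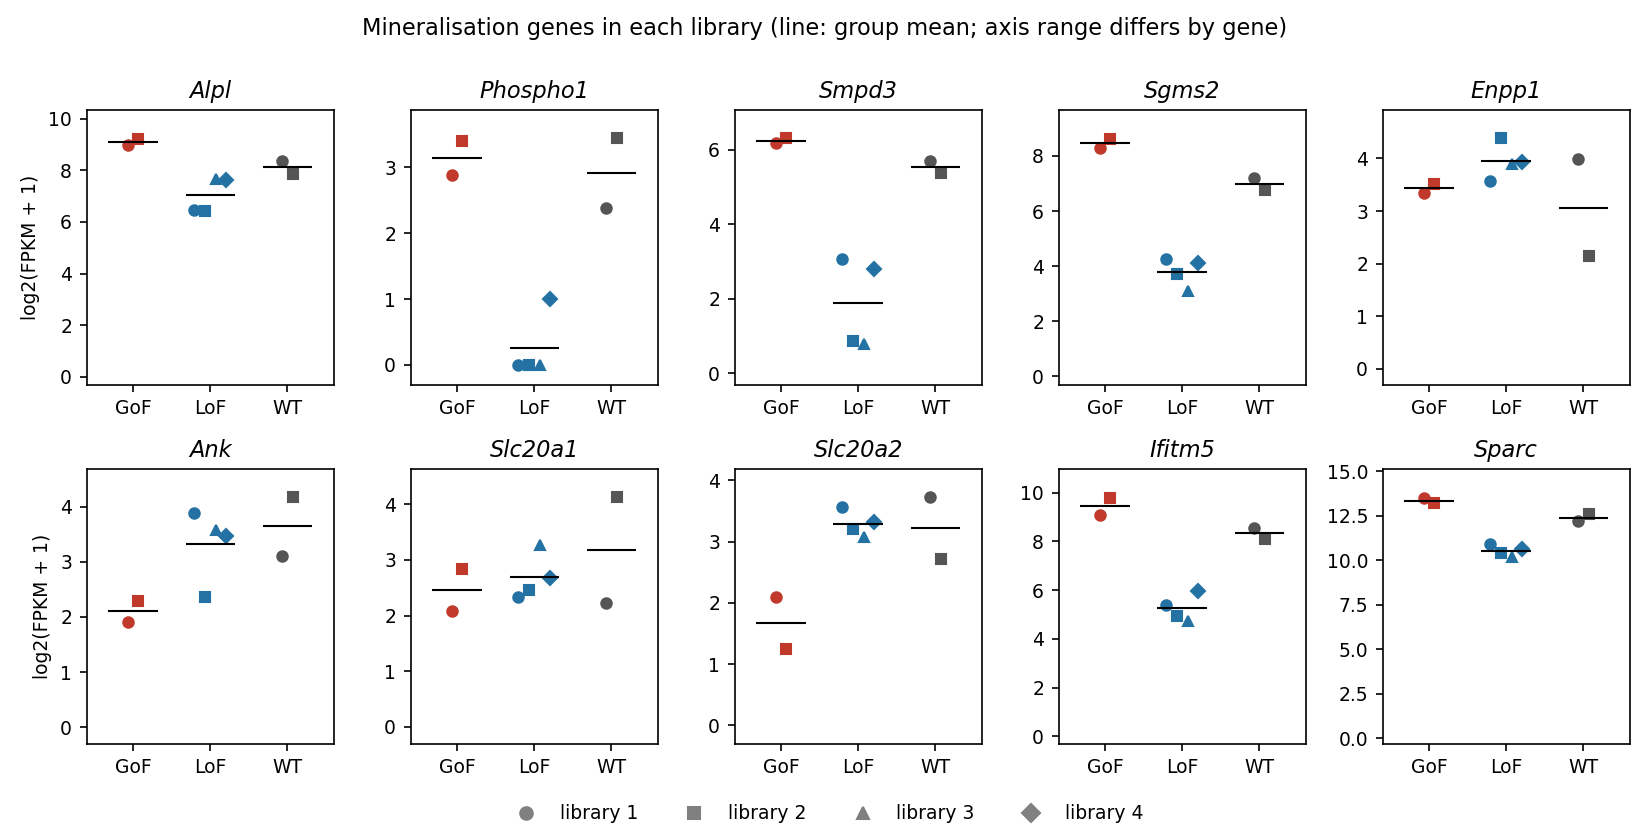
Level of each gene in each library, as log2(FPKM + 1), for GoF (2 libraries), LoF (4) and WT (2). Points are libraries, with the symbol giving the library number, and the line is the group mean. For Alpl, Smpd3, Sgms2, Ifitm5 and Sparc both GoF points lie above all others and all LoF points lie below both WT points, while Enpp1, Ank and Slc20a1 spread widely in WT.

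Among the phosphatases, Alpl (ENSMUSG00000028766.10, chromosome 4, 137741733 to 137796384, mm10) had FPKM values of 508 and 593 in the GoF libraries. It had 87.2, 84.2, 199.7 and 198 in the LoF libraries and 328 and 230.2 in the WT libraries. The 3 groups did not overlap, and LoF libraries 1 and 2 lay well below LoF libraries 3 and 4. GoF averaged 3.87-fold the LoF mean (limma, log2 fold change 2.06, SE 0.40, adjusted p = 0.00883). Left without GoF library 1 or GoF library 2, that adjusted p was 0.121 and 0.135. LoF averaged 142 ± 65.3 (SD, n = 4) and WT 279 ± 69.1 (SD, n = 2), a log2 fold change of -1.07 (SE 0.40) that did not pass (limma, adjusted p = 0.269). GoF against WT had a log2 fold change of 1.00, with a 95% interval of -0.03 to 2.02 (limma, adjusted p = 0.365).

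Phospho1 (ENSMUSG00000050860.6, chromosome 11, 95824499 to 95832140), the vesicle phosphatase, was a low-level gene throughout. Its FPKM was 6.404 and 9.588 in the GoF libraries, 0, 0, 4.27e-05 and 1.00 in the LoF libraries, and 4.23 and 9.96 in the WT libraries. Every LoF library was below every GoF and WT library, and the GoF range lay within the WT range. On the log2(FPKM + 1) scale GoF exceeded LoF by 2.90 (limma, SE 0.53, adjusted p = 0.00661) and LoF was below WT by a log2 fold change of -2.67 (limma, SE 0.53, adjusted p = 0.0463). A pseudocount of 0.1 in place of 1 put the first at 5.45 (adjusted p = 0.0200) and the second at -5.18 (adjusted p = 0.0898). The GoF call ended without GoF library 1 or 2 (adjusted p = 0.0619 and 0.0861). The LoF call ended without any one of LoF libraries 1 to 3 (adjusted p = 0.0782, 0.1004 and 0.0737), GoF libraries 1 and 2 (0.117 and 0.113) or WT libraries 1 and 2 (0.144 and 0.361). In the GENCODE M21 annotation 1708 of the 2029 exon bases of Phospho1 also lie in exons of Abi3 on the opposite strand and 1818 in exons of Zfp652 on the same strand. Abi3 was at 2.90 and 2.02 in GoF, 0 to 1.90 in LoF and 1.08 and 2.46 in WT. Zfp652 was at 2.41 and 1.68 in GoF, 0.725, 1.37, 3.85 and 0.227 in LoF libraries 1 to 4, and 1.72 and 0.888 in WT. Its highest value was thus in LoF library 3, where Phospho1 was at 4.27e-05. The protocol does not mark strand, so the split of reads among these genes is uncertain, and its part in the Phospho1 values was not tested. GoF against WT gave 0.23, with a 95% interval of -1.13 to 1.58 (limma, adjusted p = 0.926).

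The 250 bases before the RefSeq start of Phospho1 (GRCm38.p6, chr11:95824250-95824499, plus strand) are shown because they hold a TCF/LEF match beside matches to other factors. Motifs searched, on both strands, were the TCF/LEF words CTTTGAT and CTTTGAA, the RUNX words TGTGGT and TGCGGT, the GC box GGGCGG and the TATA word TATAAA. Capitals mark every match, and where matches touch or overlap they form 1 run.
Phospho1: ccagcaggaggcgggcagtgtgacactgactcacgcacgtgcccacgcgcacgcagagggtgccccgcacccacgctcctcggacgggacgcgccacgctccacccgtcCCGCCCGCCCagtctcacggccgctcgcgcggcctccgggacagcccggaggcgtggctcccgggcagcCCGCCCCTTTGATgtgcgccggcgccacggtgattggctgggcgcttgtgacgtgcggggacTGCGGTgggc
It holds CTTTGAT at 66 bases before the start, a GC box on the other strand ending directly before it, and TGCGGT at 10 bases before the start. The pair of GC boxes farther upstream share bases. Of the 32851 promoter windows of this length, 3.21% hold CTTTGAT, 5.1% TGCGGT and 32.7% a GC box. These are matches of letters and no measure of binding.

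Smpd3 (ENSMUSG00000031906.9, chromosome 8, 106252548 to 106337988) encodes neutral sphingomyelinase 2, which splits sphingomyelin into ceramide and phosphocholine. Its FPKM was 71.3 and 77.9 in GoF, 7.40, 0.810, 0.734 and 5.99 in LoF, and 51.1 and 40.5 in WT. The groups were fully separated, and among LoF libraries 1 and 4 stood well above 2 and 3. Libraries 1 and 4 were also the pair with Xist. GoF averaged 74.6 ± 4.67 (SD, n = 2), and its log2 fold change over LoF was 4.36 (limma, SE 0.66, adjusted p = 0.00264). Without GoF library 1 or 2 its adjusted p was 0.0707 and 0.070. LoF against WT gave -3.66 (limma, SE 0.66, adjusted p = 0.0317), and -2.60 with sex as a covariate (adjusted p = 0.0606). That call also ended without LoF library 2 (adjusted p = 0.0638), GoF library 1 or 2 (0.132 and 0.130) or WT library 1 or 2 (0.262 and 0.278). GoF against WT gave 0.70, with a 95% interval of -0.99 to 2.39 (limma, adjusted p = 0.755). Of the 5232 exon bases of Smpd3, 247 lie in exons of Prmt7 on the opposite strand.

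Sgms2 (ENSMUSG00000050931.7, chromosome 3, 131318985 to 131491411) encodes sphingomyelin synthase 2, which makes sphingomyelin at the cell membrane, and in humans its mutations cause a skeletal disorder with bone fragility. It was at an FPKM of 313 and 394 in GoF, 18.01, 12.05, 7.45 and 16.3 in LoF, and 146 and 108 in WT. No groups overlapped, and the gap between LoF and WT was wider than the spread within either. GoF was 26.2-fold higher than LoF by means (limma, log2 fold change 4.67, SE 0.36, adjusted p = 7.59e-05). None of the 16 alternatives ended this call. LoF averaged 13.5 ± 4.73 (SD, n = 4) and WT 127 ± 27.3 (SD, n = 2), a log2 fold change of -3.19 (limma, SE 0.36, adjusted p = 0.00657). That call held without each LoF library in turn and ended without GoF library 1 or 2 (adjusted p = 0.0681 and 0.0696) or WT library 1 or 2 (0.0677 and 0.108). GoF against WT had a log2 fold change of 1.48 with a 95% interval of 0.55 to 2.40 and did not pass over all genes (limma, adjusted p = 0.109).

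The upstream window of Sgms2 (GRCm38.p6, chr3:131491444-131491693, minus strand) is given because this gene had the largest log2 fold change of the 10 in GoF against LoF.
Sgms2: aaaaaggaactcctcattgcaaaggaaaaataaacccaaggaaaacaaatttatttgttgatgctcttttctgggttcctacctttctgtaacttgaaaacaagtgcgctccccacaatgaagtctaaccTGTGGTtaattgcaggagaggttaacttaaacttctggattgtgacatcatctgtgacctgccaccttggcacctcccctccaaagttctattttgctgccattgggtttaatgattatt
In capitals is the RUNX word TGTGGT at 120 bases before the start, a word held by 14% of all windows and by 3 of the 8 members with a RefSeq promoter entry (Sgms2, Enpp1 and Slc20a1). None of the other words searched is in this window.

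On the side of pyrophosphate, Enpp1 (ENSMUSG00000037370.13, chromosome 10, 24637914 to 24712159) was at an FPKM of 9.19 and 10.4 in GoF, 10.9, 19.96, 13.9 and 14.2 in LoF, and 14.8 and 3.40 in WT. Both GoF libraries lay just below the LoF range, and the WT libraries lay on either side of GoF. No comparison passed, with a log2 fold change of -0.52 and a 95% interval of -1.63 to 0.60 for GoF against LoF (limma, adjusted p = 0.572) and 0.89, -0.23 to 2.01, for LoF against WT (adjusted p = 0.507). The last value was -0.03 without WT library 2. GoF against WT gave 0.37 (-0.92 to 1.66, adjusted p = 0.848).

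Ank (ENSMUSG00000022265.6, chromosome 15, 27466677 to 27594909) was at 2.77 and 3.90 in GoF, 13.9, 4.14, 10.997 and 10.05 in LoF, and 7.66 and 17.1 in WT. Both GoF libraries were below all others, with LoF library 2 only just above them. GoF against LoF had a log2 fold change of -1.22 (95% interval -2.37 to -0.07) and GoF against WT one of -1.54 (-2.87 to -0.22), and neither passed (limma, adjusted p = 0.170 and 0.260). For LoF against WT it was -0.32 (95% interval -1.47 to 0.83, adjusted p = 0.852).

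Within each library the level of Alpl was also set against those of Enpp1 and Ank, as FPKM ratios that need no scaling between libraries. Alpl was 55.3 and 56.8 times Enpp1 in GoF, 7.99, 4.22, 14.4 and 13.9 times in LoF, and 22.1 and 67.6 times in WT. GoF and WT lay above LoF in this ratio and overlapped each other. Alpl was 183 and 152 times Ank in GoF, 6.30, 20.3, 18.2 and 19.7 times in LoF, and 42.8 and 13.5 times in WT. Here the GoF ratios were above all others, and LoF and WT overlapped. The ratios are of transcript levels and are given without a test.

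**Figure D2:**
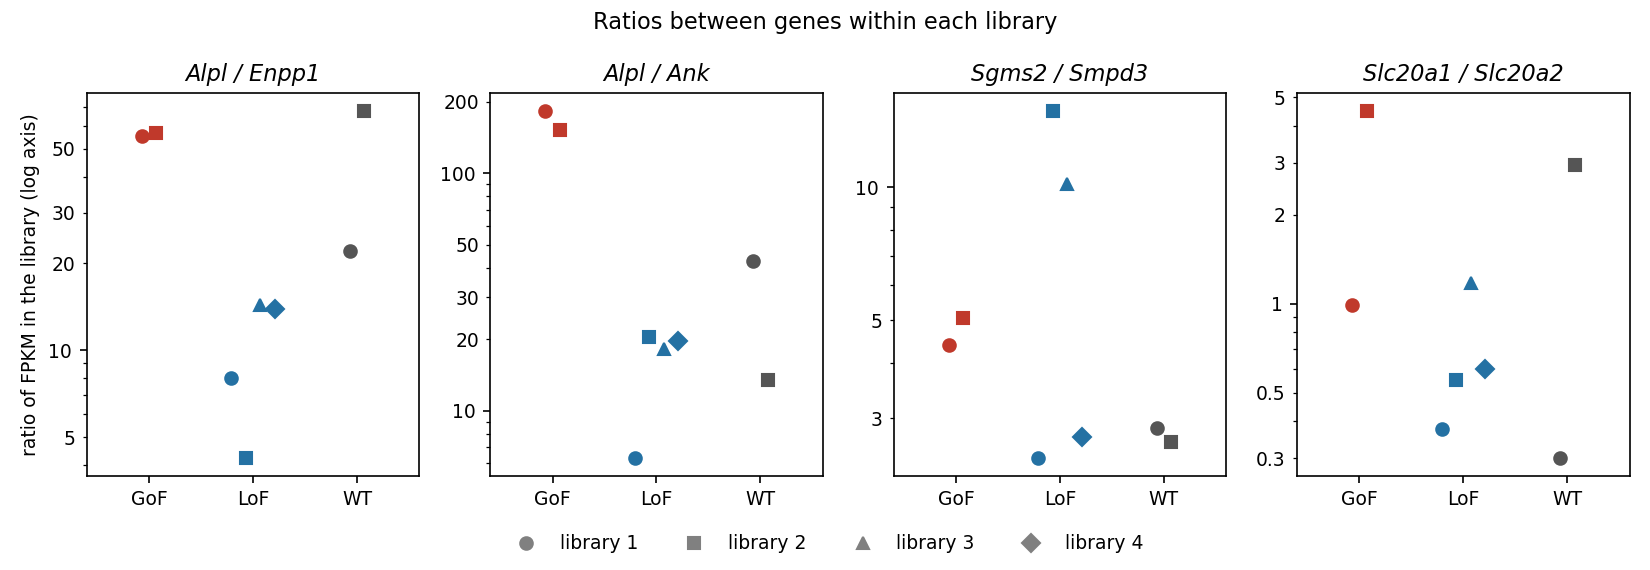
Ratio of FPKM between gene pairs within each library, on log axes, for GoF, LoF and WT, with points as libraries. The ratio of Alpl to Ank is at 152 and 183 in GoF, above the LoF and WT points, while the ratio of Slc20a1 to Slc20a2 overlaps among all 3 groups.

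Of the phosphate carriers, Slc20a2 (ENSMUSG00000037656.9, chromosome 8, 22476788 to 22569612) was at an FPKM of 3.29 and 1.37 in GoF, 10.8, 8.23, 7.40 and 8.99 in LoF, and 12.3 and 5.58 in WT. Both GoF libraries were below all 6 others, and the LoF range lay within the WT range. GoF against LoF had a log2 fold change of -1.61 (limma, SE 0.45, adjusted p = 0.0456), which ended in 14 of 16 alternatives, among them the removal of any single library. Without LoF libraries 1 to 4 the adjusted p was 0.0855, 0.0799, 0.0537 and 0.080, without GoF libraries 1 and 2 it was 0.103 and 0.276, and without WT libraries 1 and 2 it was 0.0541 and 0.0511. GoF against WT gave -1.55, with a 95% interval of -2.71 to -0.39 (limma, adjusted p = 0.191). LoF against WT gave 0.06 (-0.94 to 1.07, adjusted p = 0.974).

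Slc20a1 (ENSMUSG00000027397.14, chromosome 2, 129198764 to 129211616) had 3.25 and 6.19 in GoF, 4.07, 4.53, 8.67 and 5.41 in LoF, and 3.68 and 16.5 in WT. The groups overlapped, and the highest value by far was WT library 2. That library also had the highest sum of 6 erythroid markers, with 895 and 1838 FPKM in GoF, 75.98 to 2273 in LoF, 2557 in WT library 1 and 10567 in WT library 2, and the part of this in its Slc20a1, Ank and Enpp1 values was not tested. The log2 fold change was -0.22 for GoF against LoF (95% interval -1.50 to 1.06), -0.49 for LoF against WT (-1.77 to 0.79) and -0.71 for GoF against WT (-2.19 to 0.77), and none passed (limma, adjusted p = 0.847, 0.782 and 0.713). Without WT library 2 the comparisons with WT were 0.47 for LoF and 0.24 for GoF. Slc20a1 was 0.988 and 4.50 times Slc20a2 in GoF, 0.377, 0.550, 1.17 and 0.602 times in LoF, and 0.299 and 2.96 times in WT. Neither carrier was thus the more abundant throughout any group.

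Of the membrane and matrix proteins, Ifitm5 (ENSMUSG00000025489.5, chromosome 7, 140948958 to 140950291) encodes an osteoblast protein whose recurrent human mutation causes a form of brittle bone disease. Its FPKM was 545 and 878 in GoF, 40.4, 29.8, 25.9 and 60.7 in LoF, and 374 and 274 in WT. The groups did not overlap, and GoF averaged 711 ± 236 (SD, n = 2) and LoF 39.2 ± 15.6 (SD, n = 4). GoF was 18.2-fold higher than LoF by means (limma, log2 fold change 4.18, SE 0.36, adjusted p = 0.000148), with the call kept in all 16 alternatives. LoF against WT gave a log2 fold change of -3.07 (limma, SE 0.36, adjusted p = 0.00657). As for Sgms2, that call held without each LoF library and ended without GoF library 1 or 2 (adjusted p = 0.0681 and 0.0696) or WT library 1 or 2 (0.0915 and 0.108). For GoF against WT it was 1.11, with a 95% interval of 0.18 to 2.04 (limma, adjusted p = 0.249). Of the 765 exon bases of Ifitm5, 227 are shared with Gm45717 on the same strand, so part of its reads could be assigned to either.

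The upstream window of Ifitm5 (GRCm38.p6, chr7:140950244-140950493, minus strand) is shown as the other of the 2 windows that hold CTTTGAT, out of 8 members with an entry.
Ifitm5: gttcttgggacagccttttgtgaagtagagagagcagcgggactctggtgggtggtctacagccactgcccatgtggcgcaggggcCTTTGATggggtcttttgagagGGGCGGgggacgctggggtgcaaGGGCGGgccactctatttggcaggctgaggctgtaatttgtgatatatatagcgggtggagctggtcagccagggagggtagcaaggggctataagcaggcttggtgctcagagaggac
CTTTGAT stands at 164 bases before the RefSeq start, and the GC boxes at 142 and 119 bases before it. Both genes with the TCF/LEF word, Ifitm5 and Phospho1, were among the 6 that were higher in GoF than in LoF, while the windows of Alpl, Sgms2 and Sparc, also higher, held neither TCF/LEF word. CTTTGAA was in none of the 8 windows and in 4.46% of all windows.

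Sparc (ENSMUSG00000018593.12, chromosome 11, 55394500 to 55420080) was the most abundant of the 10 genes per length in every library. Its FPKM was 11425 and 9453 in GoF, 1927, 1368, 1152 and 1606 in LoF, and 4756 and 6096 in WT. The 3 groups were separated, with the spread within each smaller than the gaps between them. GoF was 6.90-fold higher than LoF by means (limma, log2 fold change 2.80, SE 0.24, adjusted p = 0.000148), and all 16 alternatives kept the call. LoF against WT gave a log2 fold change of -1.86 (limma, SE 0.24, adjusted p = 0.0124). With sex as a covariate its adjusted p was 0.0654, and without GoF library 1 or 2 it was 0.0773 and 0.0801. Without WT library 1 or 2 it was 0.0677 and 0.194. GoF against WT gave 0.95, with a 95% interval of 0.32 to 1.58, and did not pass (limma, adjusted p = 0.130).

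By level per length, Sparc was followed in GoF by Ifitm5 and Alpl, whose ranges overlapped, and then, without overlap at each step, by Sgms2 and Smpd3. The other 5 genes were at or below 10.4 FPKM there. In WT the same 5 genes led in the same order of means. In LoF the order was Sparc, Alpl, Ifitm5 and Enpp1, again without overlap at each step, and Sgms2 and Smpd3 stood among the low-level genes. Sgms2 overlapped Enpp1 in LoF, and Smpd3 lay below it.

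Loss of β-catenin set against WT asked how the genes differ in its absence. Of the 10 genes, 5 were lower in LoF (Sgms2, Ifitm5, Sparc, Smpd3 and Phospho1), 0 were higher and 5 did not pass. Of all tested genes 1.23% were called here, 0.566% higher and 0.667% lower. The median log2 fold change was -1.46 for the 10 genes and 0.06 for all tested genes. All LoF libraries were below both WT libraries for 6 genes, the 5 called and Alpl, against 9.88% of tested genes, or 21.4% in either direction. These calls rest on a spread that is shared with the GoF libraries: fitted on LoF and WT alone, limma called 0 of the 10 genes and 0 of 12888, with 5 and 1569 at an unadjusted p under 0.05. They also rest on both WT libraries, since 0 of the 10 were called without either. All 73 higher and 86 lower genes of this comparison became 80 and 147 under quantile normalization.

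Stabilised β-catenin set against WT asked what its excess adds. None of the 10 genes passed (limma, 0 of 10, with 5 at an unadjusted p under 0.05), where 2.31% of all tested genes did, 1.41% higher and 0.9% lower. The 5 were Sgms2, Sparc and Ifitm5, with positive log2 fold changes, and Slc20a2 and Ank, with negative ones. Both GoF libraries were above both WT libraries for Alpl, Smpd3, Sgms2, Ifitm5 and Sparc and below for Ank and Slc20a2, which is 7 of 10 genes, against 48% of all tested genes (21.8% above and 26.2% below). The median log2 fold change was 0.54 for the 10 genes and -0.08 for all tested genes. The comparisons share libraries pairwise, so they are not independent views of the same genes.

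**Figure D3:**
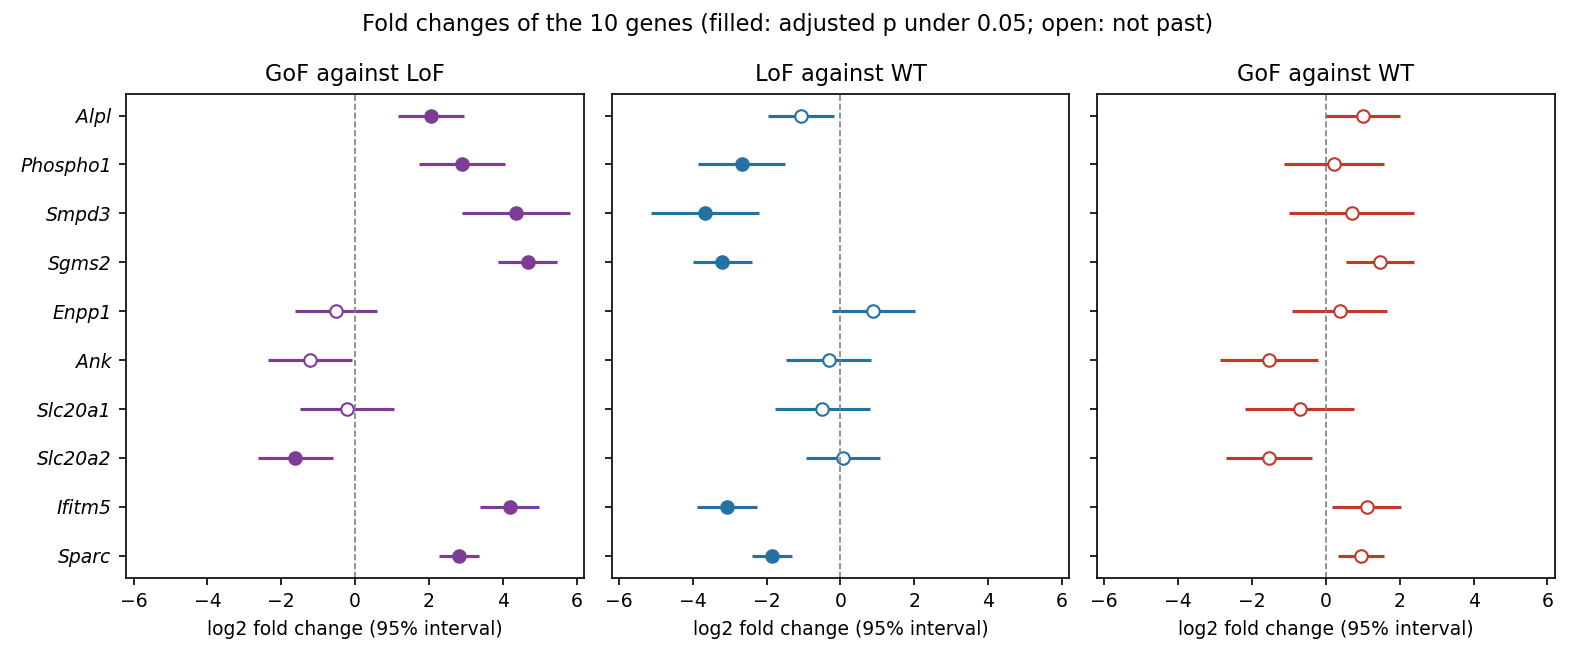
Log2 fold change of each gene with its 95% interval in GoF against LoF, LoF against WT and GoF against WT (limma). Filled points passed an adjusted p of 0.05 and open points did not. The filled points number 7, 5 and 0, and the widest interval in each panel is that of Smpd3.

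Another 85 genes of the same processes were listed by function, of which 70 were tested. In GoF against LoF 13 were higher and 7 lower, which is 28.6% of the tested ones, against 11.6% of all genes. These counts include Msx2, Smoc1 and Enpp3, which passed the filter on low values only because of the group where they are high, so the counts are a description. In LoF against WT 2 were higher and 1 lower, which is 4.29% of the tested ones, against 1.23% of all genes. In GoF against WT 3 were higher, Msx2 again among them, and 2 lower, which is 7.14%, against 2.31% of all genes. Without GoF library 1 or 2 the 20 calls of GoF against LoF became 5 and 7. Phosphate transport and sensing had 12 genes, but only 6 were tested, and the sodium phosphate carriers of kidney and gut, Slc34a1, Slc34a2 and Slc34a3, were listed at 0 in every library.

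Of the tested phosphatase, pyrophosphate and nucleotide genes, 2 of 12 were higher in GoF than in LoF and 1 was lower. Ppa1, a cytosolic pyrophosphatase, averaged an FPKM of 144 in GoF and 30.2 in LoF (limma, log2 fold change 2.32, SE 0.41, adjusted p = 0.0059). Enpp2, which makes the lipid signal lysophosphatidic acid, averaged 91.1 in GoF and 27.5 in LoF (adjusted p = 0.0129). Enpp3, a paralogue of Enpp1, was lower, at 0 and 0.198 in GoF and 2.10 to 4.21 in LoF, and would not have passed the filter on low values without LoF. Of 16 sphingomyelin and choline genes, Smpd1 and Enpp6 were higher and 14 did not pass. Smpd1, the lysosomal acid sphingomyelinase, averaged 66.7 in GoF, 6.26 in LoF and 9.80 in WT, and was higher in GoF than in LoF (limma, log2 fold change 3.27, adjusted p = 0.00105) and than in WT (2.69, adjusted p = 0.021). Enpp6, an enzyme that releases phosphocholine from choline lipids, averaged 46.2 in GoF and 7.75 in LoF (adjusted p = 0.0198).

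Among phosphate genes, Phex and Galnt3 were higher in GoF than in LoF and 4 did not pass. Phex, an endopeptidase of osteocytes that restrains phosphate loss through the kidney, was at 98.9 and 23.6 in GoF and 2.81 to 5.93 in LoF (limma, log2 fold change 3.29, adjusted p = 0.00533). Galnt3, which glycosylates the phosphate hormone FGF23, averaged 33.6 in GoF against 2.09 in LoF (log2 fold change 3.72, adjusted p = 0.00595), and Fgf23 itself was listed at 0 in every library. Of 12 genes for vesicle calcium binding and for the zinc and anchor of alkaline phosphatase, the calcium pump gene Atp2b1 was higher (adjusted p = 0.00695) and 11 did not pass. Anxa2, a calcium-dependent annexin of matrix vesicles, averaged 617 in GoF, 491 in LoF and 255 in WT, higher in GoF than in WT (adjusted p = 0.0444). Both mutants lay above WT without overlap, and LoF against WT did not pass (log2 fold change 0.94, adjusted p = 0.110). Anxa5, another annexin of these vesicles, averaged 297 in GoF and 277 in LoF.

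The paralogues of Ifitm5 and Sparc that passed in GoF against LoF were lower in GoF, 2 in each family. Ifitm3, an antiviral paralogue of Ifitm5, averaged 37.5 in GoF, 357 in LoF and 239.8 in WT, lower in GoF than in LoF (limma, log2 fold change -3.21, SE 0.28, adjusted p = 0.000148) and than in WT (-2.66, adjusted p = 0.00325). Ifitm1 averaged 14.7 in GoF, 51.2 in LoF and 5.49 in WT, and was lower in GoF than in LoF (adjusted p = 0.0451) and higher in LoF than in WT (adjusted p = 0.0187). Fkbp11, whose product binds that of Ifitm5, averaged 347 in GoF and 53.0 in LoF, higher in GoF (adjusted p = 0.00399), and the tetraspanin gene Cd9 was lower (adjusted p = 0.0442). In the Sparc family, Fstl1 averaged 16.9 in GoF, 275 in LoF and 68.7 in WT, lower in GoF than in LoF (log2 fold change -3.99, adjusted p = 0.000429) and higher in LoF than in WT (2.22, adjusted p = 0.0471). Smoc1 was listed at 0 in all GoF and WT libraries and was at 0.954 to 4.53 in LoF. It passed the filter on low values through LoF alone, which fixes its direction, so its values are a description.

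Of 12 transcription factor genes known to act on mineralising cells, 5 were higher in GoF than in LoF, 1 was lower and 6 did not pass. Msx2, a homeobox gene, was listed at 0 in all LoF and WT libraries and at 12.7 and 17.5 in GoF. It passed the filter through GoF alone, which fixes its direction, so its values too are a description. Dlx3, a homeobox gene of bone and teeth, averaged 25.5 in GoF and 1.65 in LoF (adjusted p = 0.00237). Vdr, the vitamin D receptor, averaged 0.956 in GoF, 13.2 in LoF and 18.6 in WT, lower in GoF than in either (adjusted p = 0.00105 against LoF and 0.00414 against WT). Sp7, needed for osteoblasts to form, averaged 43.6 in GoF and 12.8 in LoF, and Mef2c 182 in GoF and 40.1 in LoF. Both are among the 5 higher genes, fall outside the naming rule and were picked after their values were seen. Runx2 averaged 26.7 in GoF, 26.2 in LoF and 50.98 in WT and did not pass in any comparison.

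**Figure D4:**
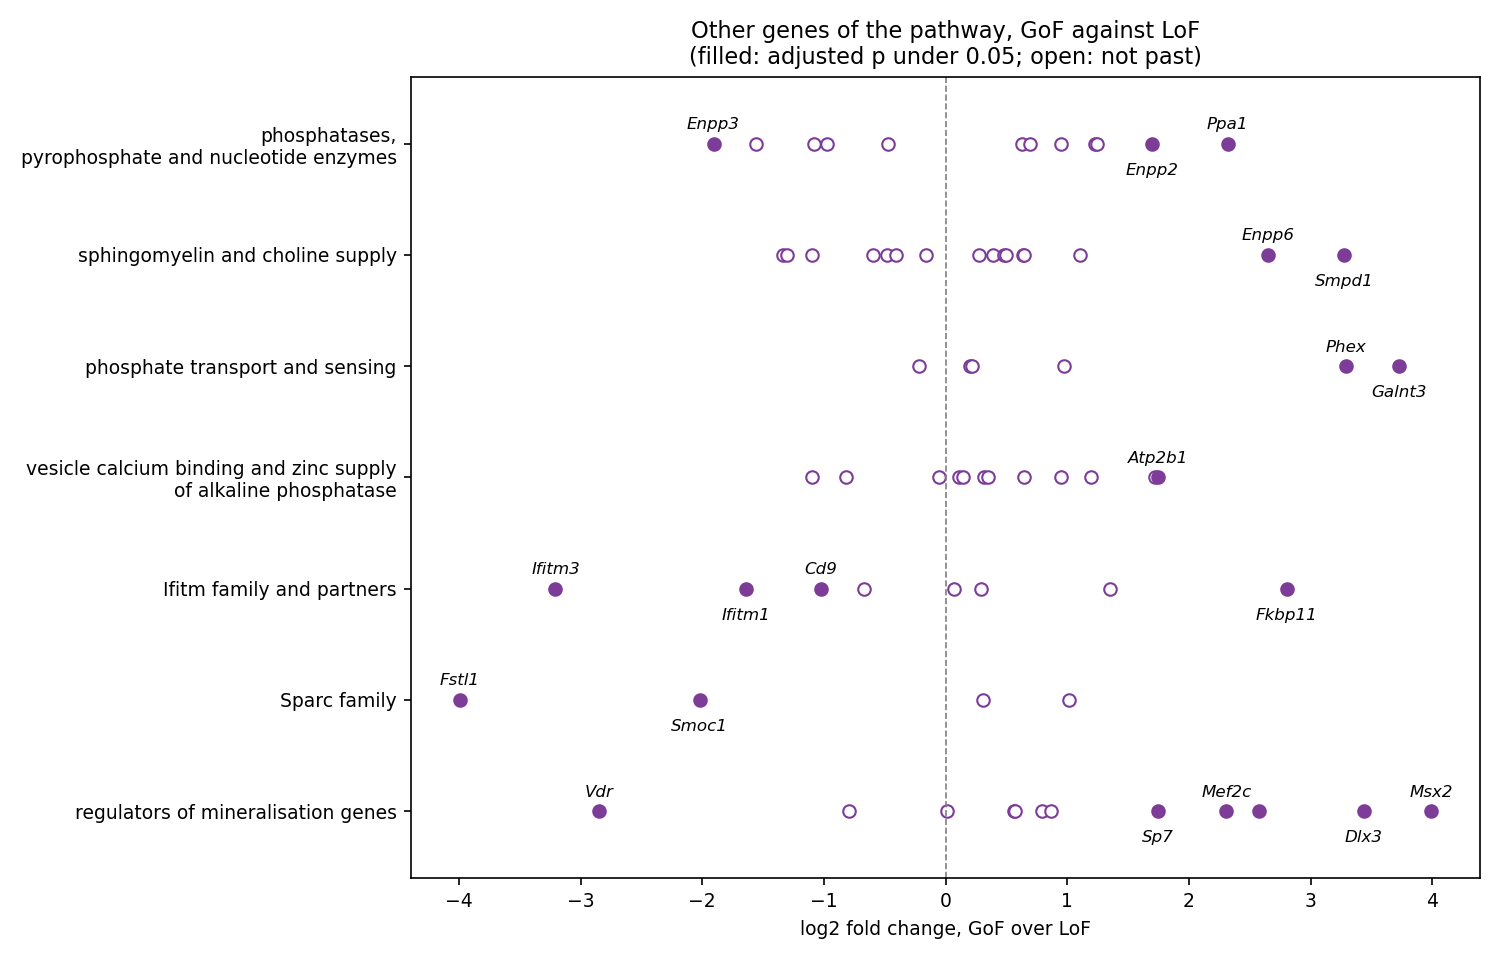
Log2 fold change, GoF over LoF, of the 70 tested genes on 7 lists of related function. Filled points passed an adjusted p of 0.05, and open points did not, with names beside all filled points but 1. The 13 filled points on the right include Galnt3, Phex and Smpd1, and the 7 on the left include Fstl1, Ifitm3 and Vdr.

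Of 26 calls chosen from these lists by rule, 5 held under all 16 alternatives, those of Ifitm3, Vdr, Fstl1, Smpd1 and Msx2 in GoF against LoF, where the direction of Msx2 was fixed by the filter. Without GoF library 1 the calls of Ppa1, Enpp2, Enpp3, Enpp6, Phex, Galnt3, Atp2b1, Fkbp11, Cd9, Ifitm1, Smoc1 and Dlx3 in GoF against LoF ended, with an adjusted p of 0.0576 to 0.352. Without GoF library 2 the same calls ended, apart from Phex and Atp2b1, with an adjusted p of 0.0539 to 0.217. Enpp3, Ifitm1, Smoc1 and Cd9 also lost theirs without 1 or more LoF libraries (adjusted p of 0.0532 to 0.0974), and Ifitm1, Smoc1 and Cd9 without either WT library (0.0549 to 0.0699). In LoF against WT, the calls of Ifitm1 and Fstl1 ended without either GoF library, as they did without WT library 2. The call of Ifitm1 also ended without LoF library 2 or WT library 1, and that of Fstl1 without any one of LoF libraries 1 to 4. Over all alternatives the log2 fold change was 2.51 to 3.48 for Ifitm1 and 1.35 to 3.08 for Fstl1. In GoF against WT, the calls of Smpd1 and Anxa2 ended without any one GoF or WT library, and that of Anxa2 also without LoF library 2 or 4. Those of Ifitm3 and Vdr ended without WT library 1. Their log2 fold changes were 2.27 to 3.12 for Smpd1, 0.99 to 1.49 for Anxa2, -3.08 to -2.43 for Ifitm3 and -4.13 to -3.01 for Vdr.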

How the data were processed

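RNA from 70 cells per library was amplified with Smart-seq2, per the labels' protocols. The authors deposited 1 table of FPKM per gene and library; per the submitters' processing notes the build was mm10, and the tools, given without roles, were Cufflinks, HTSeq, HISAT2 and SAMtools 0.1.18. The annotation release is not given in the sources used here. Since FPKM is relative to the library total, abundant genes lower the others. Of 48555 lines, 65 repeated a gene ID and were dropped.

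Values were used as log2(FPKM + 1), which understates changes of low genes. One limma model (version 3.58.1, R 4.3.3) held the libraries of all 3 groups, with a mean-variance trend and Benjamini-Hochberg adjustment over 12888 genes (10.1 total degrees of freedom); it was tested on simulated data. Depth in reads is unknown, so counting intervals were not computed. The members and lists were chosen with earlier results of these data known. Named were all 10 members, up to 4 called genes per list and comparison with the largest change, Ctnnb1, and the 2 genes most like each member; a few genes that the rule picked are not reported here. Alternatives were another pseudocount, filter, scaling, fit, replicate block or sex covariate, and each library left out. Promoter windows are from RefSeq (GRCm38.p6), with entries for 8 of 10 members.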

Additional observations from a re-analysis of the deposited data

Results flagged for a closer look

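The FPKM of Phospho1 in LoF library 4 was 1.00, while LoF libraries 1 to 3 were at 0, 0 and 4.27e-05, and this library stood far from the others of its group. The LoF groups of the 10 genes were examined in this way, and chance marks about 1 in 20 groups. That rate does not apply to Phospho1, since LoF libraries 1 to 3 lay at or near 0 and any 1 detected value would stand apart.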

How the results depend on the processing

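Of 480 values of the 10 genes under alternatives, 400 kept their direction and side of the threshold, 65 kept direction and lost the call, and 15 changed sign, none of them called. For all genes, the 1501 calls of GoF against LoF became 727 with the replicate block, 974 with sex as a covariate and 429 to 1369 with 1 library left out, and the members' 7 became 3 to 6. The 159 calls of LoF against WT became 83 with a pseudocount of 0.1, 53 without a filter, 0 with only these groups fitted (limma, 1569 at an unadjusted p under 0.05), 54 without the trend, 1 with the block, 14 with sex and 0 to 135 with 1 library left out. The members' 5 became 3, 2, 0, 2, 0 and 2 under the same settings in that order, and 0 to 5 with 1 library left out. The 298 calls of GoF against WT became 0 with only these groups (2334 unadjusted), 15 with the block, 11 with sex and 39 to 332 with 1 library left out. The members stayed at 0 (2 to 6 unadjusted). Same-numbered libraries shared only a number, with correlations of deviations of 0.018, 0.0044 and 0.0072, so the block carries no pairing. Sign changes were, for GoF against LoF, Slc20a1 at 0.063 with the replicate block and -0.60 to 0.16 with 1 library left out. For LoF against WT, Slc20a2 was at -0.017 with quantile normalization and Ank at 0.033 with sex. With 1 library left out the ranges were -0.44 to 0.57 for Slc20a2, -0.85 to 0.21 for Ank, -0.035 to 1.81 for Enpp1 and -1.44 to 0.47 for Slc20a1. For GoF against WT, Enpp1 was at -0.020 with sex, and with 1 library left out at -0.55 to 1.29, Phospho1 at -0.31 to 0.76 and Slc20a1 at -1.66 to 0.24. The cause of these changes was not tested.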

Other observations

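Among the tested genes, those most like Sgms2 over the 8 libraries by Pearson's r of log2(FPKM + 1) were Pcolce (0.994) and Tmem119 (0.993), and those most like Ifitm5 were Tmem119 (0.996) and Ibsp (0.995). Tmem119 is a membrane protein gene of osteoblasts and Ibsp encodes bone sialoprotein. Alpl was most like Hes6 (0.983) and P4hb (0.981), Smpd3 most like Creb3l1 (0.991) and Robo2 (0.988), Phospho1 most like Slc35b2 (0.998) and Serp1 (0.990), and Sparc most like Cgref1 (0.995) and Mfsd11 (0.994). The nearest to Enpp1 were Crybg3 (0.961) and Ric8a (0.931), to Ank Sgol1 (0.980), to Slc20a1 Sars2 (0.959) and Tomm40l (0.949), and to Slc20a2 Syt6 (0.979) and Apobec1 (0.972). These libraries fall into 3 genotype groups, which all such values share, and the genes were taken as the highest among the tested ones, with predicted and unnamed genes left out.

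The ratio of Sgms2 to Smpd3, the synthase over the sphingomyelinase, was 4.39 and 5.05 in GoF, 2.44, 14.9, 10.2 and 2.73 in LoF, and 2.86 and 2.66 in WT. Both GoF ratios exceeded both WT ratios, and the LoF ratios spread across all others, with libraries 2 and 3 highest. In LoF libraries 2 and 3 the divisor Smpd3 was at 0.810 and 0.734, below an FPKM of 1. Sgms2 was also at its lowest there, at 12.05 and 7.45, so these high ratios do not reflect more Sgms2.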
